A study of Mus musculus with 6 samples.

Results

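The E2F transcription factors and their DP partners were followed through differentiation of C2C12 myoblasts, an established mouse line whose cells leave the cell cycle and fuse into multinucleated myotubes. The genes were chosen by symbol, as E2f1 to E2f8, Tfdp1 and Tfdp2, with earlier results of these data known. All 10 were found among the 54525 gene rows of the count files. RNA-seq had been performed on 3 wild-type, untreated cultures of proliferating myoblasts (day 0, D0) and on 3 wild-type, untreated cultures harvested after 5 days of differentiation in horse serum medium (D5). No gene was deleted or overexpressed in either group, both groups came from the same line, and the medium changed together with the day. These were bulk libraries of whole cultures, so fewer cells of a type and less RNA per cell cannot be told apart.

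E2F proteins bind DNA at the promoters of genes for DNA synthesis and cell division. E2F1, E2F2 and E2F3 activate these genes and are held back by the retinoblastoma protein RB. E2F4 and E2F5 repress them together with the related pocket proteins p107 and p130, E2F6 represses through a Polycomb complex and binds no pocket protein, and E2F7 and E2F8 are atypical repressors that bind DNA without a DP partner. The others need DP1 or DP2, the products of Tfdp1 and Tfdp2, to bind DNA. Permanent exit from the cell cycle is a known step of muscle differentiation, and RB is known for its part in it.

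The genes lie apart in the genome (GRCm38 positions, whole genes). The activators are E2f1 at chr2:154559407-154569892, E2f2 at chr4:136172394-136196057 and E2f3 at chr13:29906575-29986063. The pocket-protein repressors are E2f4 at chr8:105297663-105305370 and E2f5 at chr3:14578641-14606309, and E2f6 lies at chr12:16810963-16839742. The atypical repressors are E2f7 at chr10:110745439-110787384 and E2f8 at chr7:48866429-48881596. Tfdp1 lies at chr8:13338751-13378448 and Tfdp2 at chr9:96196275-96323646. Counts were per gene, and no stretch of 50 bases was shared between any of the 10 genes, so reads of 1 member had no such match in another.

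The D0 libraries held from 36555048 to 40895840 counts on genes and the D5 libraries from 25449759 to 25811300. Of 16290 genes tested with edgeR's quasi-likelihood test at an adjusted p under 0.05, 6641 were lower and 6869 higher at D5, so that a call in itself was common. The lower calls were 49.2% of 13510 calls with TMM scaling, 76.6% of 14306 with no scaling and 67.4% of 5560 when libraries were scaled to their ERCC spike-ins. With no scaling the lower depth of the D5 libraries stayed in every fold change, and the median log2 fold change was -0.68. Small rises can turn negative there through depth, and the part of depth in any 1 sign was not tested. Counts of calls under each scaling are to be read beside its own totals. All 8 myotube markers were higher at D5, and their summed level went from between 5872 and 6283 counts per 1000000 counts (CPM) at D0 to between 35410 and 37190 CPM at D5. Ttn, which encodes titin, made up most of this sum, with means of 6028 CPM at D0 and 23870 CPM at D5. Its log2 fold change of 1.99 was the smallest of the 8, which ran up to 11.4. Of 5 myoblast markers 4 were lower at D5, and Des, which encodes desmin, was higher. Among markers of other cell types, the adipocyte genes Adipoq, Plin1, Cidec and Lep had at most 3 counts in any library. So did Ptprc and Adgre1 of macrophages, Cdh5 of endothelium and Ibsp and Alpl of osteoblasts. The other osteoblast markers, Bglap and Sp7, reached 5 and 4 counts. The summed osteoblast markers lay between 0.0745 and 0.1189 CPM at D0 and between 0.1217 and 0.3216 CPM at D5. The summed level of 5 fibroblast markers was between 1.01 and 1.33 CPM at D0 and between 50.4 and 60.9 CPM at D5, through Pdgfra, Dpt and Lum, with Tcf21 and Thy1 at 3 counts or fewer throughout. The summed endothelial markers lay between 3.31 and 3.59 CPM at D0 and between 0.518 and 0.884 CPM at D5, and the macrophage markers between 3.16 and 3.39 CPM and between 1.85 and 2.64 CPM. Of the endothelial markers, Kdr had 90, 118 and 92 counts at D0 and 5, 6 and 5 at D5. Tek had 30, 26 and 35 counts at D0 and 3, 5 and 12 at D5, and Pecam1 reached 7. Of the macrophage markers, Cd68 had 124, 130 and 123 counts at D0 and 57, 63 and 46 at D5. Csf1r reached 5 counts. The part of these other markers in the E2F values was not tested.

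Of the 10 genes, 6 were lower at D5 and 4 were higher, and all 10 passed the filter on low counts. The lower genes were E2f1, E2f3, E2f5, E2f7, E2f8 and Tfdp1, against 40.8% of all genes tested that were called lower. The higher genes were E2f2, E2f4, E2f6 and Tfdp2, against 42.2% of all genes tested. Of these, E2f4 and Tfdp2 had negative log2 fold changes with no scaling, where the difference in depth remained. They were also negative with the ERCC spike-ins, where neither was called. In CPM all D5 libraries lay below all D0 libraries for the same 6 genes, against 41.1% of all genes, and above them for the other 4, against 42.2%. The median log2 fold change was -0.61 over the 8 E2F genes and -0.46 over all 10, beside 0.00 over all genes tested.

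The sequences just before the starts of 4 of these genes are shown as examples, because E2F genes are themselves known as E2F targets. Of these, E2f7, E2f8 and E2f3 were lower at D5 and E2f2 was higher. The windows of E2f1 and Tfdp1, also lower, and of E2f6 and Tfdp2, also higher, are not printed. For E2f3 and E2f2 only 1 start site is printed, so the 4 runs do not compare lower with higher genes. Each run holds the 250 bases that end 1 base before a RefSeq start site of GRCm38.p6, read 5′ to 3′ on the gene's own strand. Capitals mark matches to an E2F word, taken as TTCCCGC or TTGGCGC or TTCGCGC or TTGCCGC on either strand, and to a CHR word (cell-cycle genes homology region), taken as TTTGAA or TTCGAA on either strand. The windows are E2f7 at chr10:110745189-110745438 on the plus strand, E2f8 at chr7:48881597-48881846 on the minus strand, E2f3 at chr13:29986064-29986313 on the minus strand and E2f2 at chr4:136172024-136172273 on the plus strand.
E2f7: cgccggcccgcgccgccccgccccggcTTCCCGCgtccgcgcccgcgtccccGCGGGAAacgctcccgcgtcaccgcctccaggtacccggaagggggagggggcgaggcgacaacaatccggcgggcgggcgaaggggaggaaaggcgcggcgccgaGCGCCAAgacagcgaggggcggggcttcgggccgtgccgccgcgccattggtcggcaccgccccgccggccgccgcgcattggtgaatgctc
E2f8: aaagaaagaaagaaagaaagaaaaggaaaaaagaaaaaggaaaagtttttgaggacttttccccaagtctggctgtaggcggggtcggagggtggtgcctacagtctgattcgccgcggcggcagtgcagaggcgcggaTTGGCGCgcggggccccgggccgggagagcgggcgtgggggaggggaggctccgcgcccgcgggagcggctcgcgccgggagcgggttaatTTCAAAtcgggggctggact
E2f3: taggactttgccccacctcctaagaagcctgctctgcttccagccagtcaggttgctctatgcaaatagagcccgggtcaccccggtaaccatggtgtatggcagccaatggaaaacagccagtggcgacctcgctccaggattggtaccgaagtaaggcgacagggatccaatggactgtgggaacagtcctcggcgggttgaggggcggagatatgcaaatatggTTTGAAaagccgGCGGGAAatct
E2f2: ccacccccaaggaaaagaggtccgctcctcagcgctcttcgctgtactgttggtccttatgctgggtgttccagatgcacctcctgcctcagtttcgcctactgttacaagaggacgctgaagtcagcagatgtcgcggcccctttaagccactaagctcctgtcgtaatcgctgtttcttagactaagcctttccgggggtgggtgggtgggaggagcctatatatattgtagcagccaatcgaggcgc

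The E2f7 window held 3 E2F words, at -223 to -217, -198 to -192 and -92 to -86 from the start site. Of all 32851 mouse windows of this length, 7.89% held at least 1 E2F word and 0.703% held 2 or more. Of the windows of genes tested here, 13.3% held at least 1 and 1.32% held 2 or more. The E2F words are rich in G and C, and the E2f7 window was 79.2% G or C. The median was 52.4% over all windows and 59.6% over those of genes tested, and windows of like content were not compared. The E2f8 window held 1 E2F word at -111 to -105, which overlapped a CCAAT match, and a CHR word at -20 to -15. The E2f3 window held an E2F word at -11 to -5 and a CHR word at -23 to -18, and a window before the other start site of E2f3 held neither. The E2f2 window held no E2F and no CHR word, and the window before its other start site held 1 CHR word. The 2 Tfdp1 windows overlapped and held the same E2F word, while the windows of E2f6 and Tfdp2 held none of the words. The E2f1 window held none either, but all of its 250 bases lay in annotated exons. The Tfdp2 start sites, at chr9:96258705 and chr9:96259248, lie inside the gene, and no window covered its annotated start at chr9:96196275. A CHR word was found in 17.1% of all windows and in 12.3% of those of genes tested. CCAAT, the word bound by NF-Y, was searched on both strands and found in 33.9% of all windows, and in the windows of E2f2, E2f3, E2f7 and E2f8 among the members. E2f4 and E2f5 had no entry, so 8 of the 10 genes matched a window, and 4 of these 8 held an E2F word. A match describes letters in a window and no binding was measured.

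**Figure D1:**
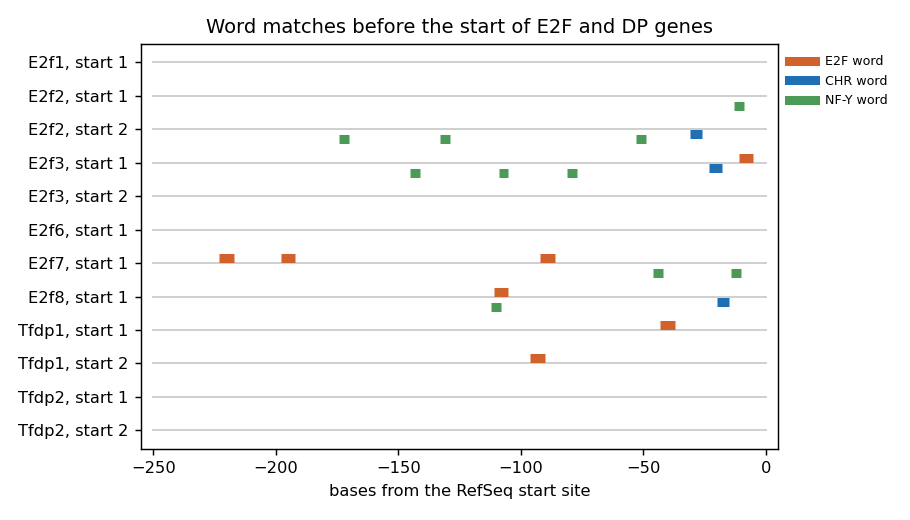
Matches to E2F, CHR and NF-Y words in the 250 bases before the RefSeq start sites of the E2F and DP genes, with 1 line per start site and position in bases from the start on the x axis (E2F orange, CHR blue, NF-Y green). The 3 E2F words of E2f7 are the most of any window shown.

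E2f7, an atypical repressor, showed the largest change of the family. In the D0 libraries it lay at 85.2, 82.3 and 89.7 CPM, and in the D5 libraries at 1.95, 1.34 and 1.85 CPM. All D5 libraries were far below all D0 libraries, with raw counts of 49, 33 and 46 at D5 against 3193, 3460 and 3613 at D0. The mean went from 85.8 ± 3.74 CPM (SD, n = 3) to 1.71 ± 0.328 CPM, and the log2 fold change was -5.64 (SE 0.0797, adjusted p = 5.3e-32 by edgeR's quasi-likelihood test), or 49.9-fold lower. Of the genes tested, 67 had a lower log2 fold change. Of the 50-base stretches of E2f7, 0.43% also occur in other genes, chiefly G730003C15Rik, which had 23 to 55 counts at D0 and 14 to 24 at D5. E2f8, the other atypical repressor, lay at 66.1, 67.9 and 66.9 CPM at D0 and at 17.6, 16.2 and 18.2 CPM at D5. It kept 25.8% of its D0 level, without overlap between groups, with a log2 fold change of -1.95 (SE 0.0493, adjusted p = 2.0e-25). Part of its exonic length, 11.2%, is overlapped by Gm2788 on the other strand, which had 19 to 42 counts at D0 and 5 to 10 at D5. Per length, the ratio of E2f8 to E2f7 in TPM (counts per exonic length, scaled to sum to 1000000 in each library) went from 1.29 ± 0.0667 to 17.0 ± 2.62.

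The activators did not move together. E2f1, which encodes the activator also linked to apoptosis, lay at 49.9, 48.9 and 49.7 CPM at D0 and at 10.51, 12.01 and 13.06 CPM at D5. The D5 libraries were all lower, with a log2 fold change of -2.06 (SE 0.0584, adjusted p = 4.3e-24). Of the 50-base stretches of E2f1, 1.75% also occur in other genes, chiefly Dpy19l3, whose counts are not given here. E2f3 lay at 57.2, 57.5 and 59.4 CPM at D0 and at 31.4, 29.5 and 29.1 CPM at D5. It too fell in all 3 libraries, to 51.8% of its D0 level (log2 fold change -0.95, SE 0.045, adjusted p = 2.8e-18). E2f2, an activator of the same class, lay at 22.2, 21.0 and 23.3 CPM at D0 and at 102, 95.0 and 95.1 CPM at D5. E2f2 was higher in every D5 library, with means of 22.1 ± 1.15 and 97.3 ± 3.98 CPM (SD, n = 3) and a log2 fold change of 2.14 (SE 0.0457, adjusted p = 2.5e-27), or 4.40-fold. Its log2 fold change was 1.46 with no scaling and 1.56 with the ERCC spike-ins, so that E2f2 was called higher under every scaling tried. Of all genes tested, 10.1% had a higher log2 fold change than E2f2.

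**Figure D2:**
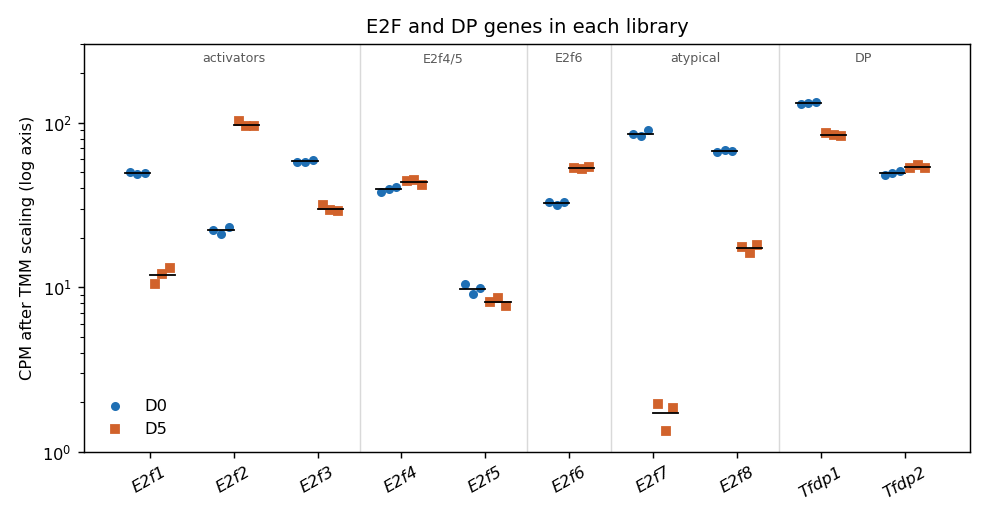
CPM after TMM scaling of each E2F and DP gene in each of the 6 libraries, on a log axis, with circles for D0, squares for D5 and a bar at each group's mean. E2f7 falls from between 82.3 and 89.7 CPM to between 1.34 and 1.95 CPM, and E2f2 is the member with the largest rise.

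The repressors E2f4, E2f5 and E2f6 changed less. E2f4, the repressor that pairs with p130 in resting cells, lay at 38.1, 39.8 and 40.9 CPM at D0 and at 44.1, 44.6 and 41.6 CPM at D5. The D5 libraries were above those of D0 by a small margin, with a log2 fold change of 0.13 (SE 0.0455, adjusted p = 0.0086), which was 0.09 (adjusted p = 0.1) without D0 replicate 1. It was -0.55 with no scaling, and -0.42 with the ERCC spike-ins, where it was not called (adjusted p = 0.55). E2f5, which is bound by p130 as well, lay at 10.5, 9.06 and 9.86 CPM at D0 and at 8.08, 8.64 and 7.68 CPM at D5, with a log2 fold change of -0.27 (SE 0.0842, adjusted p = 0.0048). E2f5 was lower in all D5 libraries, but not called with the ERCC spike-ins (-0.81, adjusted p = 0.23). Of its exonic length 1.46% is overlapped by 1810022K09Rik on the other strand, which had 1906 to 2002 counts at D0 and 811 to 957 at D5. The part of this overlap in the small E2f5 change was not tested. E2f6 lay at 33.0, 31.7 and 32.9 CPM at D0 and at 53.0, 52.5 and 53.5 CPM at D5. It was 1.63-fold higher with a log2 fold change of 0.70 (SE 0.043, adjusted p = 1.8e-15), and it was 0.02 (adjusted p = 0.78) with no scaling and 0.13 (adjusted p = 0.86) with the ERCC spike-ins.

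The DP partners also differed from each other. Tfdp1, which encodes DP1, lay at 130, 131 and 134 CPM at D0 and at 86.2, 84.2 and 82.6 CPM at D5. It was lower in every D5 library, at 64.0% of D0 (log2 fold change -0.64, SE 0.0348, adjusted p = 8.7e-17), and with the ERCC spike-ins the log2 fold change was -1.21 (adjusted p = 0.059). Of its 50-base stretches 16.8% also occur in other genes, chiefly Gm7390, which had 10 to 26 counts at D0 and 2 to 5 at D5. Tfdp2, which encodes DP2, lay at 48.0, 49.2 and 50.9 CPM at D0 and at 53.0, 55.6 and 52.9 CPM at D5. Its D5 libraries lay just above those of D0. The log2 fold change of Tfdp2 was 0.12 (SE 0.0419, adjusted p = 0.0081), and 0.09 (adjusted p = 0.09) without D0 replicate 1. For Tfdp2 it was -0.56 with no scaling, and -0.43 with the ERCC spike-ins, where it was not called (adjusted p = 0.54).

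**Figure D3:**
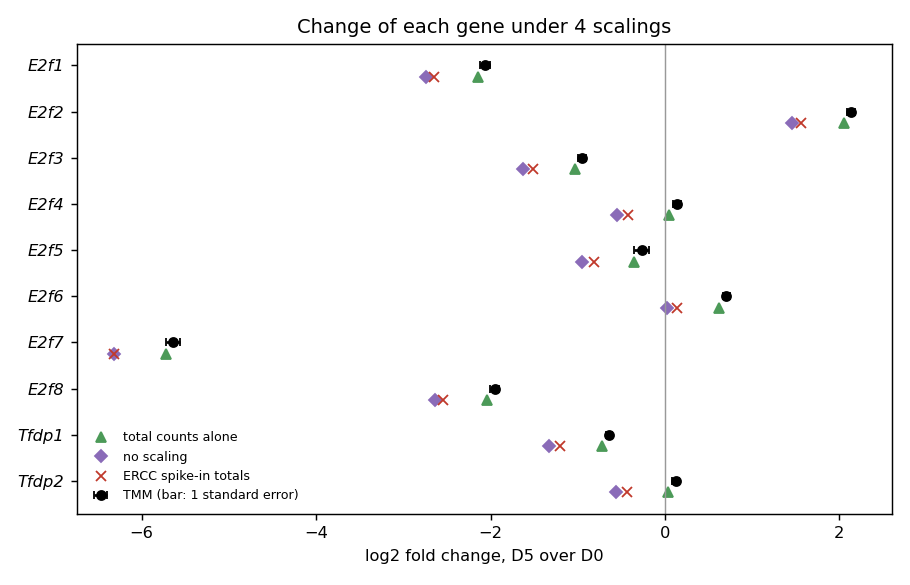
Log2 fold change of each E2F and DP gene, D5 over D0, under TMM scaling and the other ways of scaling the libraries. E2f4 and Tfdp2 lie just above 0 with TMM and below 0 with no scaling or the ERCC spike-ins, while E2f1, E2f3, E2f7 and E2f8 stay below 0 and E2f2 stays above it.

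Levels of different genes were compared in TPM. The length used was that of all annotated exons of a gene together, and the isoforms in use were not measured. At D0 the E2F with the highest mean TPM was E2f4 at 55.8 TPM, whose libraries overlapped those of E2f1 at 54.3 TPM. These were followed by E2f8 at 42.5 TPM, E2f3 at 37.0 TPM, E2f7 at 32.9 TPM, E2f6 at 19.9 TPM, E2f5 at 19.0 TPM and E2f2 at 15.7 TPM, with E2f6 and E2f5 overlapping. At D5 E2f2 stood first at 61.9 TPM, above E2f4 at 54.9 TPM, without overlap. E2f6 followed at 29.0 TPM, E2f3 at 17.2 TPM, E2f5 at 14.2 TPM, E2f1 at 11.7 TPM, E2f8 at 9.85 TPM and E2f7 at 0.591 TPM. Tfdp1 was above all E2F genes on both days, at 124 and 71.3 TPM, and Tfdp2 lay at 12.2 and 11.9 TPM, the latter overlapping E2f1. In TPM the D0 and D5 libraries of E2f4 and of Tfdp2 overlapped.

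E2f2 went from the lowest mean TPM of the E2F genes to the highest. In CPM it was also the highest E2F gene at D5, at 97.3 CPM. At D0 the lowest in CPM was E2f5 at 9.80 CPM, with E2f2 at 22.1 CPM, and the highest was E2f7 at 85.8 CPM. The summed TPM of the 8 E2F genes went from 277 ± 8.27 to 199 ± 6.85 (SD, n = 3). The repressors fell further than the activators on this scale, from 170 to 109 TPM against 107 to 90.7 TPM. In CPM, without length, the repressors went from 235 to 124 and the activators from 129.7 to 139.2, without overlap, so the direction of the activator sum turned with the unit. The share of the activators was 38.7%, 38.5% and 38.5% of the summed TPM at D0 and 45.9%, 44.8% and 45.8% at D5, without overlap, a difference of 6.92 percentage points. In CPM the difference was 17.4 points. The share of E2f2 among the activators went from 14.7% to 68.2%, and E2f1 and E2f3 together went from 91.2 to 28.8 TPM. The ratio of activators to repressors was 0.628 at D0 and 0.835 at D5, and without E2f2 it was 0.536 and 0.266. In CPM the ratio was 0.553 and 1.13, and without E2f2 0.458 and 0.339. Among the repressors, E2f7 and E2f8 together went from 75.5 to 10.4 TPM, while E2f4, E2f5 and E2f6 together lay at 94.7 and 98.1 TPM with overlapping libraries, and at 81.9 and 104.5 CPM without overlap. These sums are descriptions of mRNA, and protein was not measured here.

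**Figure D4:**
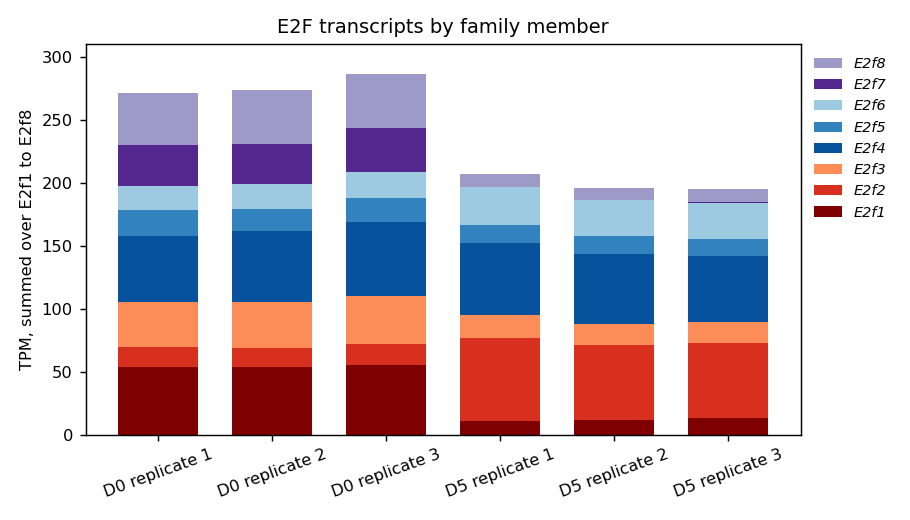
TPM of the 8 E2F genes in each library, stacked, with D0 libraries on the left and D5 libraries on the right. The summed TPM is lower at D5, E2f2 takes 31.0% of it against 5.66% at D0, and E2f7 takes 0.296% against 11.9%.

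The pocket proteins, which bind E2Fs, also split. Rb1, which encodes RB, was higher at D5, with means of 51.5 and 129 CPM (log2 fold change 1.32, adjusted p = 2.8e-24), as was Rbl2, which encodes p130 (40.6 and 84.9 CPM, 1.06, adjusted p = 1.8e-20). Rbl1, which encodes p107, was lower (51.9 and 8.39 CPM, -2.63, adjusted p = 5.6e-25). With the ERCC spike-ins 0 of the 2 higher pocket genes were called, and Rbl1 still was. Of the MuvB core, B-Myb and FoxM1, which join E2F4 and the pocket proteins in the DREAM complex or activate mitotic genes, 5 of 7 genes were lower, beside 40.8% of all genes tested. With the ERCC spike-ins 4 of 7 were lower, where 5560 of all 16290 genes were called, 67.4% of them lower. Mybl2, which encodes B-Myb, went from 42.6 to 0.871 CPM and Foxm1 from 123 to 4.45 CPM, and Lin9 (-1.97), Lin54 (-1.46) and Rbbp4 (-0.20) were lower on the log2 scale. Lin37 was higher (0.44, but -0.24 with no scaling, and -0.14 and not called with the ERCC spike-ins). Lin52 was not called (-0.11, adjusted p = 0.23).

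Of 8 G1 cyclins and CDKs, which phosphorylate the pocket proteins, 7 were lower and Ccnd3, a D-type cyclin, was higher by 1.27 on the log2 scale, beside 40.8% of all genes called lower and 42.2% called higher. With the ERCC spike-ins 6 were lower and Ccnd3 was not called, where 5560 of all 16290 genes were called, 67.4% of them lower. Ccne1 (-3.89) and Ccne2 (-3.54), which encode the E-type cyclins, had the largest falls of this list. Of 7 CDK inhibitors, Cdkn1a, which encodes p21, went from 107 to 2006 CPM (log2 fold change 4.22). Cdkn1c, which encodes p57, went from 0.184 to 4.33 CPM (4.53 on the log2 scale), with only 7, 7 and 8 counts at D0. Cdkn2c fell by 1.34, Cdkn1b and Cdkn2d were not called, and Cdkn2a and Cdkn2b had 0 counts in all 6 libraries. The ubiquitin ligase subunits that act on E2F proteins were all lower (3 of 3, beside 40.8% of all genes). Ccnf had a log2 fold change of -3.48 and Fzr1 of -0.76, and Skp2 went from 45.5 to 11.4 CPM.

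All 37 genes of the G1/S and DNA synthesis list, which are known E2F targets, were lower at D5, with log2 fold changes from -5.27 to -1.39 and a median of -3.14. Cdc6, which loads the replicative helicase, and Ccna2, which encodes cyclin A2, had the largest falls at -5.27 and -5.17. All 24 late cell-cycle genes were lower as well, with a median of -4.99, led by Bub1 (-5.65) and Plk1 (-5.52), which encode mitotic kinases. Both counts stand beside the 40.8% of all genes called lower, and the lists were chosen with earlier results of these data known. Of the G1/S genes 16 of 31 with a window held an E2F word, and of the late genes 3 of 21 did, while a CHR word was found for 6 of 31 and 9 of 21. Of all tested genes with a window, 15.9% held an E2F word and 14.6% a CHR word. The E2f7 log2 fold change of -5.64 thus lay beyond the range of the G1/S list, and near the low end of the late genes, which ran from -5.65 to -3.63.

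**Figure D5:**
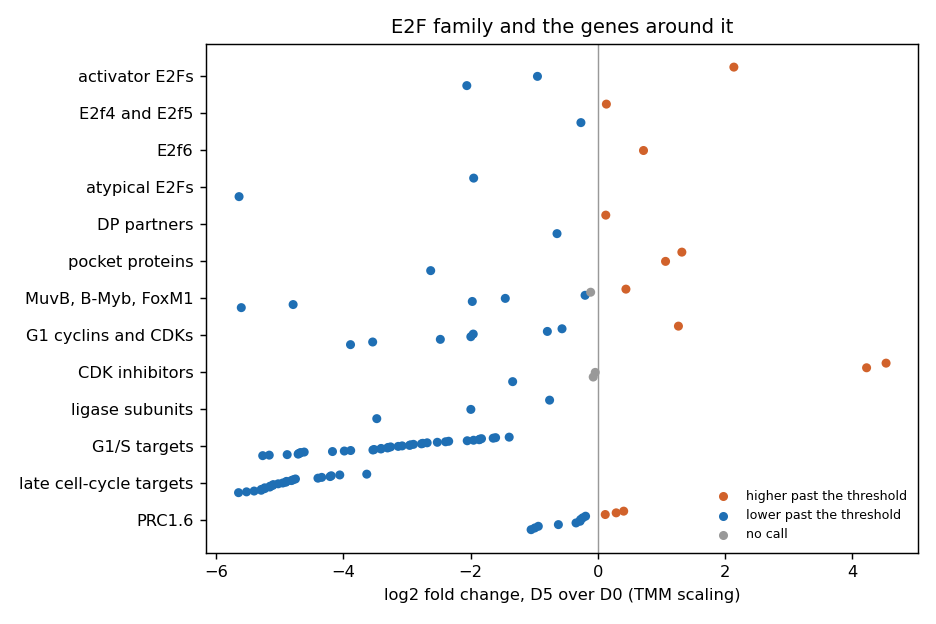
Log2 fold change, D5 over D0, of each gene of the E2F pathway lists, with 1 row per list, orange for higher, blue for lower and grey for no call; vertical shifts within a row only keep points apart. The G1/S and late cell-cycle lists lie wholly below 0, while the E2F members, pocket proteins and CDK inhibitors lie on both sides.

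Among apoptosis genes linked to E2F1, Apaf1, which encodes the apoptosome scaffold, was lower at D5 (log2 fold change -1.94), and Pmaip1 (0.95), Bcl2l11 (0.90) and Bbc3 (0.47), which encode BH3-only proteins, were higher. Bbc3 was lower with no scaling (-0.21), and with the ERCC spike-ins 0 of these 3 BH3-only genes were called higher. Of 12 genes of the PRC1.6 Polycomb complex in which E2F6 works, 9 were lower and Ring1 (0.41), Mga (0.29) and Rnf2 (0.12) were higher, beside 40.8% and 42.2% of all genes, with Cbx3 (-1.05) and Hdac1 (-0.99) the lowest. Rnf2 (adjusted p = 0.034) was not called with DESeq2, upper-quartile factors, total counts, no filter, or without any 1 library other than D5 replicate 3. With no scaling all 12 were lower, Ring1, Mga and Rnf2 included, and with the ERCC spike-ins 3 were lower and 0 higher. Of all 16290 genes, 14306 were called with no scaling, 76.6% of them lower, and 5560 with the ERCC spike-ins, 67.4% of them lower. The 9 germline genes known to be silenced through E2F6 were too low to test, with Ddx4 at 4, 2 and 2 counts at D5 and the others at no more than 3 counts in any library.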

How the data were processed

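RNA was sequenced from 3 C2C12 cultures at D0 and 3 at D5, grouped by the labels. Per the labels and the study's methods, the authors aligned reads to GRCm38 and deposited raw featureCounts counts per gene. The labels name Tophat2 and the methods HISAT2, and the strand setting, the annotation release and the handling of reads with several matches are not given in the sources used here. DESeq2 1.6.3 is named in the submitters' processing notes. The nameless row, equal to its column's total, and 92 ERCC rows (0.720% to 2.09% of counts) entered neither library sizes nor tests. Replicates differed by more than sampling noise (chi-square per degree of freedom 2.32 to 3.73). The labels do not say that cultures were independent, so p-values measure the spread between these samples. An exact permutation test of 3 against 3 could not go below 0.1.

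Genes that passed filterByExpr were tested by the quasi-likelihood method of edgeR 4.0.16 (R 4.3.3) with TMM factors, with Benjamini-Hochberg adjustment over 16290 genes and a threshold of 0.05. CPM and fold changes are TMM-scaled, and TPM used exonic length from the GENCODE annotation of GRCm38. The test gives no standard error, so each SE was derived as the absolute log2 fold change over the square root of the F statistic. Gene positions, overlaps and 50-base stretches shared with other genes used the same annotation, and 3 counts or fewer were taken as not detected, which covers counting error only. Start-site windows came from RefSeq. Alternatives were DESeq2 1.42.0, upper-quartile factors, total counts, no scaling, ERCC totals, no filter, a minimum of 10 counts per library, omission of single libraries, a replicate block and CPM for shares. The edgeR fit was tested on simulated counts in which far fewer genes changed than were called here. The genes and lists were chosen with earlier results of these data known. Named were all members, pocket proteins and MuvB, B-Myb and FoxM1 genes, and of each other list up to 2 genes with the largest rise and 2 with the largest fall (mean of at least 100 counts in 1 group) and any opposite minority of up to 3. Other genes named, Apaf1, Bbc3, Fzr1, Ddx4, Cdkn1b, Cdkn2d and untested genes, were named to account for their lists. Some genes of the apoptosis list are not reported here.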

Additional observations from a re-analysis of the deposited data

How the results depend on the processing

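E2f1, E2f2, E2f3, E2f7 and E2f8 kept their direction and call in every alternative, the 6 lower members and the 37 lower G1/S genes were 6 and 37 without any 1 library (8 lower members with no scaling, 4 with the ERCC spike-ins, and 37 G1/S genes with each), and the number of genes called then ran from 13236 to 13599. The 4 higher members became 2 with total counts, 2 with no filter on low counts, 1 with no scaling, 1 with the ERCC spike-ins, and 2 to 4 when 1 library was left out, the 2 being without D0 replicate 1, where E2f4 and Tfdp2 were no longer called. The log2 fold change of E2f4 was -0.55 with no scaling and -0.42 with the ERCC spike-ins, and that of Tfdp2 was -0.56 and -0.43. The median over all genes tested was -0.68 with no scaling and -0.58 with the ERCC spike-ins. Genes called rose from 13510 to 14306 with no scaling, which left the depth difference in place, and 76.6% of these calls were lower. The number called fell to 5560, 67.4% of them lower, with the ERCC spike-ins, which took unequal shares of the D5 libraries. The activator share rose by 6.71 to 7.30 points without 1 library and by 17.4 points in CPM. The causes were not tested. Same-numbered libraries correlated at 0.0329, 0.0645 and 0.0277, under 0.1, so the numbers were not taken to pair samples. With the replicate block, 13558 genes, 6 lower and 4 higher members were called, and each library correlated best with its own number.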
